A study of Homo sapiens with 4 samples.

Results

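The genes described here are 9 that encode the cell's sensors of double-stranded RNA and the oligoadenylate synthetase (OAS) family: DDX58 (RIG-I, current symbol RIGI), IFIH1 (MDA5), EIF2AK2 (PKR), OAS1, OAS2, OAS3, OASL, MAVS and TLR3. They were chosen by name, for what their proteins do and not by a measured value, but with earlier results of these data known. A probe could be linked for 8 of the 9, which are among the 18812 genes named on the arrays, and 7 have a probe bright enough to test. The cells were MDA-LM2, a lung-metastatic derivative of the human breast cancer line MDA-MB-231, and every sample, controls included, had been transfected by lipofection with RNA that carried a cap and a poly(A) tail. In 2 samples this RNA held tandem copies of the sRSE element and served as a decoy for the factor that binds it. In the other 2 its sequence was scrambled. Total RNA was taken 48 h after transfection and read on Illumina beadchips with 47323 probes. No untransfected sample is among them, so a response to transfected RNA that both groups share would not appear in the comparison. Nothing in the labels says that the 2 samples of a group were separate cultures, so p-values measure only the spread between these arrays, which may be technical.

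Cells detect double-stranded RNA through several routes. In the cytosol, the helicases RIG-I and MDA5 bind it and pass the signal to MAVS, an adaptor on the mitochondrial membrane, from which kinases activate the transcription factors IRF3 and IRF7 and induce interferon genes. RIG-I prefers short duplexes with triphosphate ends, and MDA5 prefers long ones. TLR3 recognises double-stranded RNA in endosomes and signals through the adaptor TICAM1 (TRIF). PKR, once bound to it, phosphorylates the initiation factor eIF2 and slows translation. OAS1, OAS2 and OAS3, once bound to it, make oligoadenylates that act as a second messenger, whereas OASL lacks this activity and enhances signalling by RIG-I. Most of these genes are themselves induced by interferon, through promoter elements bound by the factor ISGF3 or by IRF proteins.

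The promoters of the 2 cytosolic helicases are shown because their transcripts gave different results with the decoy, IFIH1 lower and DDX58 with no difference that passed the test. The sequences are those of RefSeq (GRCh38.p14), run 5′ to 3′ in the direction of the gene, and span 250 bases before to 50 bases after the annotated gene start. Capitals mark every match, on either strand, to the motifs GAAANNGAAA and GAAANGAAA, pairs of GAAA spaced by any 2 bases or any 1 base, which form the core of many interferon-response elements. The IFIH1 promoter lies at chr2:162318635-162318934 and the DDX58 promoter at chr9:32526147-32526446, both on the minus strand.
IFIH1: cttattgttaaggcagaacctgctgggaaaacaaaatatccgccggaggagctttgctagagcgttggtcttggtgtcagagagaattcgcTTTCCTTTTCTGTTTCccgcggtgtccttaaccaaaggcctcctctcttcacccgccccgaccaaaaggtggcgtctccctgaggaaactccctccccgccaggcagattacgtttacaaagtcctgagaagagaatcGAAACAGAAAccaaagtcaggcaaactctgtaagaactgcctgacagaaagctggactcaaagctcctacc
DDX58: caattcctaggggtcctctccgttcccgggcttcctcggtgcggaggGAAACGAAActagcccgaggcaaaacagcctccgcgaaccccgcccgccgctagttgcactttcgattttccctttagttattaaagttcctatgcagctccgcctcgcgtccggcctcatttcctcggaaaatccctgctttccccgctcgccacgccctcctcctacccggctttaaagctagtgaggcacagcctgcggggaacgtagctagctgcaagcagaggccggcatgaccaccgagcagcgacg
The IFIH1 window holds 3 matches with the 2-base spacing, of which 2 overlap on the reverse strand and begin 159 and 153 bases before the gene start, and the third begins 21 bases before it. The DDX58 window holds 1 match, with the 1-base spacing, which begins 203 bases before the gene start.

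Matches in 4 other members are shown as the motif with 10 bases on each side, so that the spacing and the flanks can be compared. The windows are at chr2:37156967-37156996 on the minus strand for EIF2AK2 (PKR), chr12:112906935-112906963 on the plus strand for OAS1, chr12:112938452-112938481 on the plus strand for OAS3, and chr4:186069142-186069171 on the plus strand for TLR3.
EIF2AK2: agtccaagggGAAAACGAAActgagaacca
OAS1: cccttctgagGAAACGAAAccaacagcag
OAS3: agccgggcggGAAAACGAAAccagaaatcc
TLR3: caagctttacTTTCACTTTCgagagtgccg
These matches begin 6 bases before the gene start in EIF2AK2, 17 in OAS1, 12 in OAS3 and 4 in TLR3, where the match is on the reverse strand. The capitals of OAS1 and DDX58 are the same letters, GAAACGAAA. OAS3 holds a further overlapping pair of matches, one of each spacing, that begin 148 and 143 bases before the gene start. Of the 7 members whose promoter is in the table, 4 held a match with the 2-base spacing and 3 with the 1-base spacing, 6 held one or the other, and MAVS held neither. Over all 35116 promoters of this length, 3.57% held the first motif, 3.12% the second and 6.40% either. A match describes the letters only. OAS2 and OASL have no entry in the table. OAS1, OAS3 and OAS2 stand next to each other in that order on chromosome 12, and OASL lies elsewhere on the same chromosome.

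The arrays were alike in the number of probes detected, while the decoy arrays were the brighter in raw signal. The median raw bead signal was 77.5 and 76.3 with scrambled RNA and 83.9 and 81.3 with the decoy, and between 13402 and 13849 probes an array had a detection p-value under 0.01. Raw signals of the decoy arrays were the brighter in the upper range too, with 75th percentiles of 208 and 193 against 166 and 157. A raw signal that is somewhat higher with the decoy can therefore be unchanged after normalization. Log2 signals correlated at 0.995 and 0.996 within the groups and at 0.975 between them. Of 6 genes known to be expressed in the MDA-MB-231 lineage, 5 were detected (VIM, CD44, MSN, CAV1 and KRT8), and the probe of KRT18 was detected on 0 arrays, while ESR1, PGR, GATA3 and CDH1, which the lineage lacks, were each detected on 0 arrays. Of the 8 markers of leukocytes, endothelium and fibroblasts, 2 were detected, CD14 and PECAM1. The leukocyte markers summed to 470 to 487 raw units with scrambled RNA and 492 to 500 with the decoy, with PTPRC, CD3E and LYZ detected on 0 arrays. The endothelial markers summed to 178 to 216 with scrambled RNA and to 319 to 320 with the decoy, with PECAM1 at 165.8 and 128.8 against 271.8 and 264 and CDH5 detected on 0 arrays, and the fibroblast markers to 123 to 147 and 125 to 131 with both markers detected on 0 arrays. Their part in the results below was not tested.

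The question of the comparison was which transcripts shift when the factor that binds sRSE is titrated by the decoy. Among the 7 sensors and OAS genes tested, each by its brightest probe, 2 fell with the decoy (IFIH1 and OAS2), 0 rose, and 5 did not pass the test (DDX58, EIF2AK2, OAS1, OAS3 and OASL). The test was limma on background-corrected, quantile-normalized log2 signals, with Benjamini-Hochberg adjustment over all 13889 detected probes and a threshold of 0.05. These 2 of 7 are 28.6%, beside 42.1% of all 8789 named genes tested and 43.3% of all detected probes, a share below the background, which is no result about the genes as a group. Of all named genes tested, 23.1% fell and 19.0% rose. At an unadjusted p under 0.05 one gene more, OAS3, would be counted, as higher. The median log2 change of the 7 genes was -0.049, beside -0.042 over all named genes. Counted by probe, 10 probes of these 7 genes were tested, of which 1 was higher (a second probe of OASL), 2 were lower and 7 did not pass. Without sRSE decoy replicate 2 the number of genes called fell from 2 to 1, because OAS2 lost its call.

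**Figure D1:**
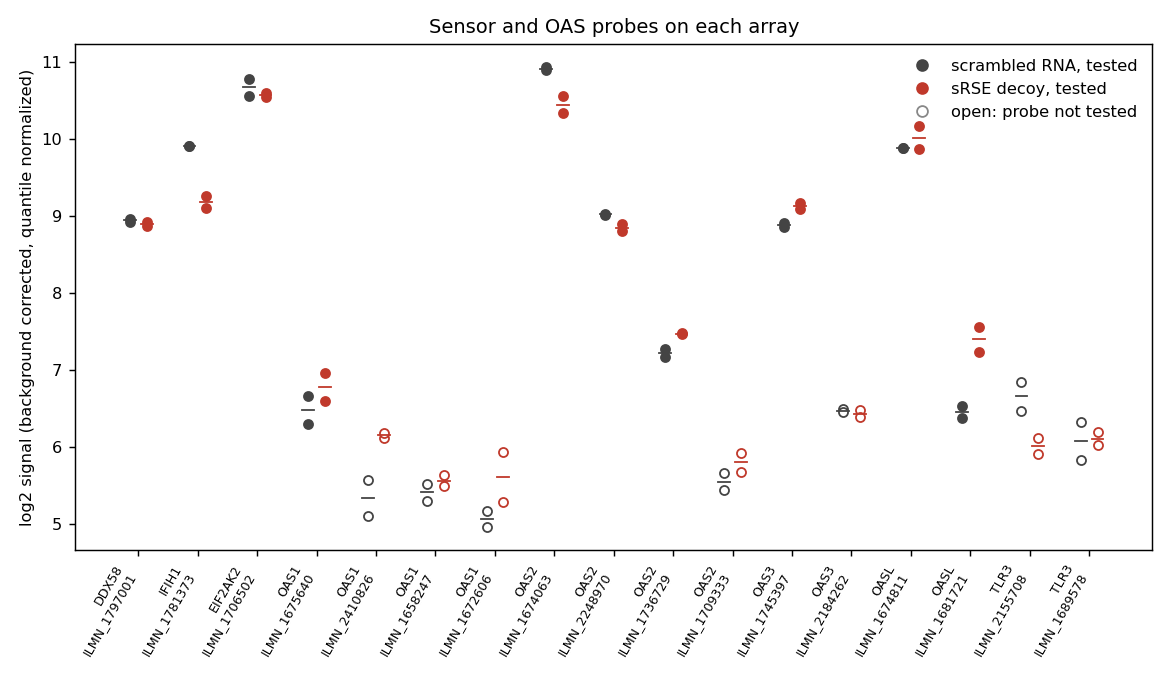
Normalized log2 signal of the 17 linked probes of the sensors and OAS genes on the 4 arrays (2 with scrambled RNA in grey, 2 with the sRSE decoy in red); each point is 1 array, each short line a group mean, and open points are probes not tested. IFIH1 lies at 9.91 on both scrambled arrays and at 9.26 and 9.10 on the decoy arrays, the widest gap among the brightest probes of the 7 genes, while DDX58 stays between 8.87 and 8.96 on all 4 arrays.

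IFIH1, which encodes the cytosolic sensor of long double-stranded RNA, was lower with the decoy. The raw signal of its probe (ILMN_1781373) was 977.3 and 891.4 on the scrambled arrays and 755.8 and 621.7 on the decoy arrays. Both decoy arrays lay below both scrambled arrays, before and after normalization. Groups that did not overlap, in either direction, were seen for 74.2% of all detected probes. On the normalized log2 scale the values were 9.91 and 9.91 against 9.26 and 9.10. The change was -0.73 ± 0.094 (log2, SE over 2 arrays in each group; adjusted p = 0.00121 by limma), with a 95% interval of -0.95 to -0.51, or 1.66-fold lower. Of all detected probes, 2.46% had a change that was as low or lower. IFIH1 kept its call and its direction under all 13 alternatives run on its probe, between -0.81 and -0.45. The authors' deposited table lists IFIH1 at a log10 ratio of -0.0296, the 0.254 percentile of its values. In a bulk sample, fewer cells expressing a transcript and less transcript per cell cannot be told apart.

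DDX58, which encodes RIG-I, the sensor of short duplexes with triphosphate ends, did not differ by the test. Its probe (ILMN_1797001) read 518.5 and 467.5 with scrambled RNA and 597.2 and 557.2 with the decoy, and after normalization 8.96 and 8.92 against 8.87 and 8.92. The lowest scrambled and the highest decoy value, both 8.92, lay closer to each other than the arrays within either group. The change was -0.049 ± 0.086 (log2, SE, limma adjusted p = 0.673), and its 95% interval of -0.25 to 0.15 leaves out a fall of the size seen for IFIH1. The sign turned positive, 0.036, when arrays were scaled by their medians only, and 0.23 without any normalization, and no alternative brought it past the threshold. The difference in change between DDX58 and IFIH1 was not itself tested. The authors' deposited table gives DDX58 a log10 ratio of -0.00205, at the 35.2 percentile.

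EIF2AK2 encodes PKR, the kinase that couples double-stranded RNA to the arrest of translation, and its transcript did not pass the test. Its probe (ILMN_1706502) read 1788 and 1397 with scrambled RNA and 1768.4 and 1540.6 with the decoy. The decoy arrays lie between the scrambled arrays, so the groups overlap. After normalization the values were 10.78 and 10.55 against 10.59 and 10.54, a change of -0.097 ± 0.10 (log2, SE, limma adjusted p = 0.477) with a 95% interval of -0.34 to 0.14. Without scrambled RNA replicate 1 the estimate was 0.016, and without normalization it was 0.063, so its sign is not settled. The authors' deposited table gives a log10 ratio of -0.00384, at the 23.4 percentile.

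OAS2 was measured by 3 detected probes that carry 3 different transcript accessions, and these did not move alike. Its product makes oligoadenylates once it has bound double-stranded RNA. The brightest probe (ILMN_1674063, NM_016817) read 1994.3 and 1746.1 with scrambled RNA and 1714.8 and 1344.4 with the decoy. The decoy arrays were the lower, with the gap narrow in raw signal and wider after normalization (10.93 and 10.88 against 10.55 and 10.33). The change was -0.47 ± 0.10 (log2, SE, limma adjusted p = 0.00922), with a 95% interval of -0.71 to -0.23, or 1.38-fold lower. Without sRSE decoy replicate 2 it was -0.35 with an adjusted p of 0.0655, no longer past the threshold.

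The second OAS2 probe (ILMN_2248970, NM_001032731) read 535.8 and 498.2 against 572.8 and 548.7, and after normalization 9.01 and 9.02 against 8.79 and 8.89. Its change of -0.17 ± 0.089 (log2, SE, limma adjusted p = 0.152) did not pass, and it was 0.12 without normalization. The third (ILMN_1736729, NM_002535) read 190.3 and 169.1 against 264.2 and 242.7, with both decoy arrays above both scrambled arrays. On the normalized scale these are 7.27 and 7.16 against 7.47 and 7.46, a change of 0.25 ± 0.090 (log2, SE, limma adjusted p = 0.0542) that missed the threshold. It passed under 4 of 13 alternatives, among them median scaling (0.42, adjusted p = 0.0115). The difference in change between the third probe and the brightest one, tested in a limma fit over 2189 such pairs of probes, was 0.72 ± 0.14 on the log2 scale (95% interval 0.41 to 1.02, adjusted p = 0.00225). That between the second and the brightest was 0.29 ± 0.15 (95% interval -0.032 to 0.62, adjusted p = 0.129). This test of probe pairs was added after the data were seen. Of all such pairs 44.4% differed by it, so probes of one gene often disagree on these arrays. The call of OAS2 as lower therefore holds for 1 of its 3 detected probes. A last OAS2 probe, also of NM_016817, was detected on 0 arrays.

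OASL, the family member that has no synthetase activity, also had probes that parted. The brightest (ILMN_1674811, NM_198213) read 960.1 and 872.6 with scrambled RNA and 1345.4 and 1003.2 with the decoy, and after normalization 9.88 and 9.88 against 10.16 and 9.86, so the groups overlap. Its change was 0.13 ± 0.11 (log2, SE, limma adjusted p = 0.371), and without sRSE decoy replicate 1 it was -0.015. Of 13 alternatives it passed under 1, without normalization (0.34, adjusted p = 0.0223). The other (ILMN_1681721, NM_003733) read 133.5 and 119.6 against 232.4 and 256.2, so both decoy arrays were well above both scrambled arrays. Its normalized values were 6.53 and 6.37 against 7.23 and 7.56, and it rose by 0.95 ± 0.12 (log2, SE, limma adjusted p = 0.00129), with a 95% interval of 0.66 to 1.24, or 1.93-fold. It was detected on both decoy arrays but on only 1 of the scrambled arrays, where its detection p-values were 0.00779 and 0.01039, so the fold rests on a dim baseline. This probe kept its call under all 12 alternatives that retain it, between 0.61 and 1.12. The probes differed in change by 0.81 ± 0.19 (log2, SE, limma over the same pairs, adjusted p = 0.00581). In the authors' deposited table the log10 ratios are 0.0267 for NM_003733, at the 99.1 percentile, and 0.00567 for NM_198213, at the 85.9 percentile.

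**Figure D2:**
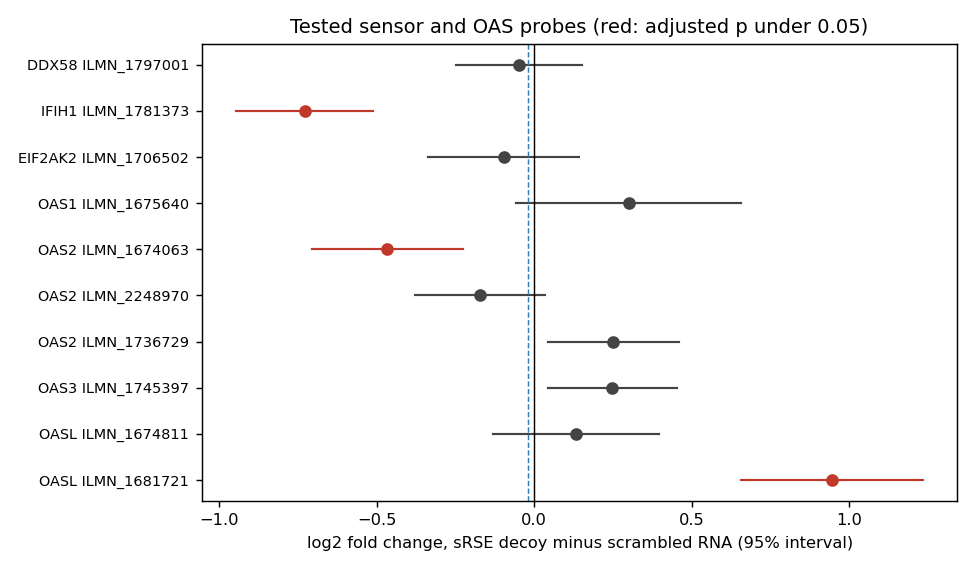
Log2 change (decoy minus scrambled RNA) of the 10 tested member probes; points are limma estimates, bars their 95% intervals from 2 arrays per group, and the dashed line the median of all detected probes, -0.020. The intervals of IFIH1 (-0.95 to -0.51) and of the brightest OAS2 probe (-0.71 to -0.23) lie below 0 and that of the dimmer OASL probe (0.66 to 1.24) above it, all with an adjusted p under the threshold; the OAS3 probe and the dimmest tested OAS2 probe also have intervals above 0 but missed the threshold after adjustment.

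OAS3, the synthetase of the family that acts on long double-stranded RNA, was higher on both decoy arrays without passing the test. Its tested probe (ILMN_1745397) read 500.9 and 445.5 with scrambled RNA and 713.2 and 616.7 with the decoy, and after normalization 8.91 and 8.85 against 9.17 and 9.09. The groups did not overlap, as was so for 74.2% of all detected probes. The change of 0.25 ± 0.089 (log2, SE, 95% interval 0.043 to 0.45, limma adjusted p = 0.0539) lay just outside the threshold and passed it under 6 of 13 alternatives. The second OAS3 probe (ILMN_2184262) read 131.4 and 122.7 against 160.2 and 142.8 and was detected on 1 array, so it was not tested. After normalization its values were 6.49 and 6.44 against 6.47 and 6.38, so the groups overlap. The authors' deposited table gives OAS3 a log10 ratio of 0.00514, at the 84.2 percentile.

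OAS1, another synthetase of the family, was near the detection limit throughout. Its 1 tested probe (ILMN_1675640, NM_001032409) read 120.7 and 133.8 with scrambled RNA and 202 and 158.2 with the decoy, and was detected on 3 of the 4 arrays. After normalization the values were 6.29 and 6.66 against 6.95 and 6.60, so the groups overlap. The change was 0.30 ± 0.15 (log2, SE, 95% interval -0.056 to 0.66, limma adjusted p = 0.149). Without scrambled RNA replicate 2 it was 0.48 and passed the test (adjusted p = 0.0345), and it was 0.12 without scrambled RNA replicate 1 or without sRSE decoy replicate 1 and 0.48 without sRSE decoy replicate 2, none of which passed. With all 4 arrays it passed under median scaling (0.50, adjusted p = 0.00824) and without normalization (0.49, adjusted p = 7.74e-04). Its 3 further probes read between 66.1 and 91.9 with scrambled RNA and between 89.4 and 136.2 with the decoy and were detected on 0 arrays. The authors' deposited table gives log10 ratios of 0.011, 0.00258 and 0.0107 for the 3 OAS1 accessions, all above 0. These ratios come from the same 4 arrays and draw in part on the undetected probes. Their common sign is therefore no separate support for a rise.

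TLR3 and MAVS were not tested. The 2 probes of TLR3, the endosomal sensor, read 130.1 and 145.3 against 136.2 and 116, and 101.4 and 117.6 against 141 and 121.3. In raw signal the groups overlap on the first and not on the second, and after normalization the reverse (6.47 and 6.84 against 6.12 and 5.91, and 5.82 and 6.32 against 6.19 and 6.02). The first was detected on 1 array, scrambled RNA replicate 2, and the second on 0, so TLR3 was not well above background on most arrays. The authors' deposited table lists it at a log10 ratio of -0.00703, at the 11.3 percentile. MAVS, the adaptor on which RIG-I and MDA5 converge, could not be linked to a probe, and its one value is the log10 ratio of 0.00828 in the authors' deposited table, at the 91.2 percentile. That table gives no error for it.

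The partners of these proteins were followed in 7 lists of 127 genes in all, of which 110 were tested. Of these, 18 rose, 30 fell and 62 did not pass, a share called of 43.6%, beside the 42.1% of all named genes. Their median log2 change was -0.14, beside -0.042 over all named genes. Without sRSE decoy replicate 1 the count called was 29, and without sRSE decoy replicate 2 it was 30. Of the 48 called, 3 genes called lower had a raw difference of the opposite sign. Of 42 called list genes followed singly, 10 lost the call under median scaling, 9 of them called lower (EIF2AK3, EIF2AK4, EIF2B5, ATG5, CYLD, IRF7, PELI1, IL10RB and IFNAR1) and 1 called higher (ILF2), with adjusted p of 0.0941 to 0.35. Without normalization 18 did, all called lower, among them DHX58 (-0.22), ATG5 (-0.023), PPP1R15B (-0.13), STRBP (-0.16), DUS2 (-0.12), IKBKG (-0.25) and MX1 (-0.23). Without the detection filter, which adjusts over more probes, 16 did.

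Downstream of RIG-I and MDA5, 25 of 28 listed cofactors and signalling proteins were tested, of which 6 rose, 7 fell and 12 did not pass (median -0.15). The 13 called are 52%, beside 42.1% of all named genes tested, a difference that was not tested. DHX58 encodes LGP2, the third helicase of the family, which lacks a signalling domain and assists MDA5. It read 220.9 and 175 with scrambled RNA and 175.1 and 162.6 with the decoy, so raw signals overlap slightly, and it fell by 0.73 ± 0.12 on the normalized log2 scale (limma adjusted p = 0.00281). OPTN, an adaptor of the kinase TBK1, fell by 0.70 ± 0.087 (limma adjusted p = 0.00107). IRF3, the transcription factor that the route activates, read 417 and 404.4 against 680.5 and 640.5. All decoy values stood above all scrambled ones, and IRF3 rose by 0.45 ± 0.089 (limma adjusted p = 0.00606). TRAF2, an adaptor ubiquitin ligase, rose by 0.56 ± 0.10, and ATG5, an autophagy protein that dampens MAVS signalling, fell by 0.44 ± 0.090. These 5 kept their calls without each array in turn. TRADD rose (0.44) and CYLD fell (-0.39), and both lost the call without sRSE decoy replicate 1 (adjusted p = 0.056 and 0.0761). TRAF6 rose (0.33) and lost the call without scrambled RNA replicate 1 or either decoy array (adjusted p of 0.0782 to 0.0922), and its other detected probe had a change of -0.23 ± 0.14 that did not pass. IRF7 was called lower by its brightest probe (-0.30 ± 0.10, limma adjusted p = 0.0463) and higher by its other probe (0.32 ± 0.086, limma adjusted p = 0.0202), so no direction is given for it. Its brightest probe lost the call without either scrambled array or sRSE decoy replicate 2 (adjusted p of 0.0769 to 0.257). The count called in the list was 7 without either decoy array.

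For the OAS route, 2 of 3 listed partners were tested and 0 were called, also at an unadjusted p under 0.05. ABCE1, which recycles ribosomes, had a change of -0.0024 ± 0.097 (-0.055 ± 0.088 by its other probe), and PDE12, which degrades oligoadenylates, 0.14 ± 0.089 (limma adjusted p = 0.243).

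Around PKR, 18 of 20 listed regulators and eIF2 proteins were tested, of which 3 rose, 5 fell and 10 did not pass (median -0.15). The share called was 44.4%, near the 42.1% of all named genes tested. PPP1CA, the catalytic subunit of the phosphatase that reverses eIF2 phosphorylation among many other substrates, read 366.1 and 384.5 with scrambled RNA and 853.4 and 848.8 with the decoy. It rose by 1.00 ± 0.11 (log2, SE, limma adjusted p = 7.54e-04), or 2.00-fold, and its other detected probe rose by 1.00 ± 0.089. PPP1R15B, the subunit that directs that phosphatase to eIF2, fell by 0.58 ± 0.088 (limma adjusted p = 0.00222), while its other detected probe had a change of -0.15 ± 0.090 that did not pass (limma adjusted p = 0.21). Both kept their calls without each array in turn, and the other 6 called genes did not. EIF2AK3 (-0.45, lost without sRSE decoy replicate 1, adjusted p = 0.0517) and EIF2AK1 (-0.38, lost without sRSE decoy replicate 2, adjusted p = 0.0844) are the stress kinases PERK and HRI. EIF2S3, a subunit of eIF2 (0.52), lost its call without scrambled RNA replicate 2 or either decoy array, and EIF2B1 (0.32), EIF2B5 (-0.31) and the kinase gene EIF2AK4 (-0.28) lost theirs without any one of the 4 arrays, with adjusted p between 0.0519 and 0.196 over these 4 genes. The count called in the list was 5 without scrambled RNA replicate 1, 4 without scrambled RNA replicate 2 and 3 without either decoy array. The PKR regulators PRKRA, TARBP2 and ADAR did not pass by their brightest probes. PRKRA, its protein activator PACT, had a change of -0.29 ± 0.10 (limma adjusted p = 0.0527), and TARBP2, an inhibitor, -0.21 ± 0.091 (limma adjusted p = 0.0933). ADAR, which edits double-stranded RNA and limits its sensing, had -0.15 ± 0.089 (limma adjusted p = 0.209), while a dimmer ADAR probe rose by 0.67 ± 0.10 (limma adjusted p = 0.00221) and a dimmer TARBP2 probe by 0.45 ± 0.16 (limma adjusted p = 0.0475).

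Around TLR3, 14 of 16 listed trafficking and signalling genes were tested, of which 2 rose, 2 fell and 10 did not pass (median -0.12). The 4 called are 28.6%, beside 42.1% of all named genes tested. CNPY3 is a chaperone that helps several Toll-like receptors leave the endoplasmic reticulum, and its bearing on TLR3 was not tested here. It read 247 and 228.1 against 478.3 and 410.3 and rose by 0.70 ± 0.089 (limma adjusted p = 0.00115), and its other detected probe by 1.31 ± 0.10 (limma adjusted p = 3.74e-04). IKBKG, the regulatory subunit NEMO of the kinase upstream of NF-κB, fell by 0.46 ± 0.086 (limma adjusted p = 0.00476). PELI1, a ubiquitin ligase of the TLR3 route, fell by 0.45 ± 0.092 and lost the call without sRSE decoy replicate 2 (adjusted p = 0.0511), and the remaining called gene is TRAF6, given above. TICAM1, the adaptor that TLR3 binds, read 621.1 and 573.8 against 707.7 and 526.7 and did not pass (-0.24 ± 0.12, limma adjusted p = 0.136), nor did its other detected probe (-0.094 ± 0.086). Without sRSE decoy replicate 2 the list's count called was 2, and it was 3 to 5 without each other array.

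Among 26 other proteins that bind double-stranded RNA, 22 were tested, of which 5 rose, 3 fell and 14 did not pass (median -0.050). Called genes made up 36.4%, beside 42.1% of all named genes tested. DHX9, a helicase that unwinds RNA duplexes, read 422.8 and 385.5 with scrambled RNA and 961.9 and 765.2 with the decoy. Both decoy arrays were far above both scrambled arrays, and DHX9 rose by 0.89 ± 0.099 (log2, SE, limma adjusted p = 7.95e-04), or 1.86-fold. Its other detected probe had a change of 0.26 ± 0.12 that did not pass (limma adjusted p = 0.123). STRBP, a spermatid RNA-binding protein, fell by 0.64 ± 0.11, and DUS2, a tRNA dihydrouridine synthase that also binds PKR, fell by 0.53 ± 0.10, both called without each array in turn. DHX36 was called higher by its brightest probe (0.51) and lower by its other (-0.54), and no direction is given. ILF2 (0.29) lost its call without any one array, ZFR (-0.37) without scrambled RNA replicate 1 or either decoy array, and CDKN2AIP (0.34) without sRSE decoy replicate 1 or scrambled RNA replicate 2, with adjusted p between 0.0606 and 0.211 over these 3 genes. Without sRSE decoy replicate 1 the list's count called was 4.

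Of the 12 listed genes for interferons, their receptors and the factor ISGF3, 11 were tested, of which 1 rose, 5 fell and 5 did not pass (median -0.30). The 6 called are 54.5%, beside 42.1% of all named genes tested, a difference that was not tested. IRF1, a transcription factor that induces interferon-stimulated genes, read 969.5 and 848.6 with scrambled RNA and 549.9 and 493.2 with the decoy. The groups stood far apart, and IRF1 fell by 1.14 ± 0.087 (log2, SE, limma adjusted p = 3.21e-04), or 2.21-fold. IRF1 kept its call without each array in turn. STAT2, a subunit of ISGF3 (-0.36), lost the call without sRSE decoy replicate 2 (adjusted p = 0.116). IFNAR1, a receptor chain (-0.30), lost it without scrambled RNA replicate 2 or either decoy array, and JAK1, the receptor-bound kinase (0.33), without scrambled RNA replicate 1 or either decoy array (adjusted p of 0.0666 to 0.156 over both). IL10RB was called lower by its brightest probe (-0.33) and higher by another (0.53), and its brightest probe lost the call without scrambled RNA replicate 1 or either decoy array (adjusted p of 0.0885 to 0.118). IFNB1, the interferon that these sensors induce, read 42.7 and 47.3 against 49.3 and 46.1 and was detected on 0 arrays. The list's count called was 4 without scrambled RNA replicate 1, 3 without sRSE decoy replicate 1 and 2 without sRSE decoy replicate 2.

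Of 28 interferon-stimulated genes outside the sensors and OAS family, 24 were tested, of which 2 rose, 8 fell and 14 did not pass (median -0.22). The share called was 41.7%, near the 42.1% of all named genes tested, which is no result about these genes as a group. ISG15 (0.0095), IFIT3 (-0.014) and IFI6 (-0.024) were among those that did not pass, each by its brightest probe. Other probes of IFIT3 and IFI6 stood apart from these. In the authors' deposited table one of IFIT3 has a log10 ratio of -0.0202, at the 1.37 percentile. One of IFI6 has 0.00904 there, at the 92.1 percentile. SAMD9, a restriction factor of poxviruses, read 2802 and 2483.7 with scrambled RNA and 1805.9 and 1547 with the decoy and fell by 0.81 ± 0.088 (log2, SE, limma adjusted p = 7.59e-04). IFITM1, a membrane protein that blocks viral entry, fell by 0.77 ± 0.088, and IFI44 by 0.69 ± 0.099. The exonuclease gene ISG20 fell by 0.65 ± 0.094. IFIT2, which binds viral RNA, fell by 0.64 ± 0.085, the tetherin gene BST2 by 0.51 ± 0.10 and MX1, a dynamin-like GTPase, by 0.42 ± 0.086. DTX3L, a ubiquitin ligase, rose by 0.51 ± 0.10 (limma adjusted p = 0.00623). All 8 of these genes kept their calls without each array in turn. The list's count called was 8 to 11 without each array in turn.

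**Figure D3:**
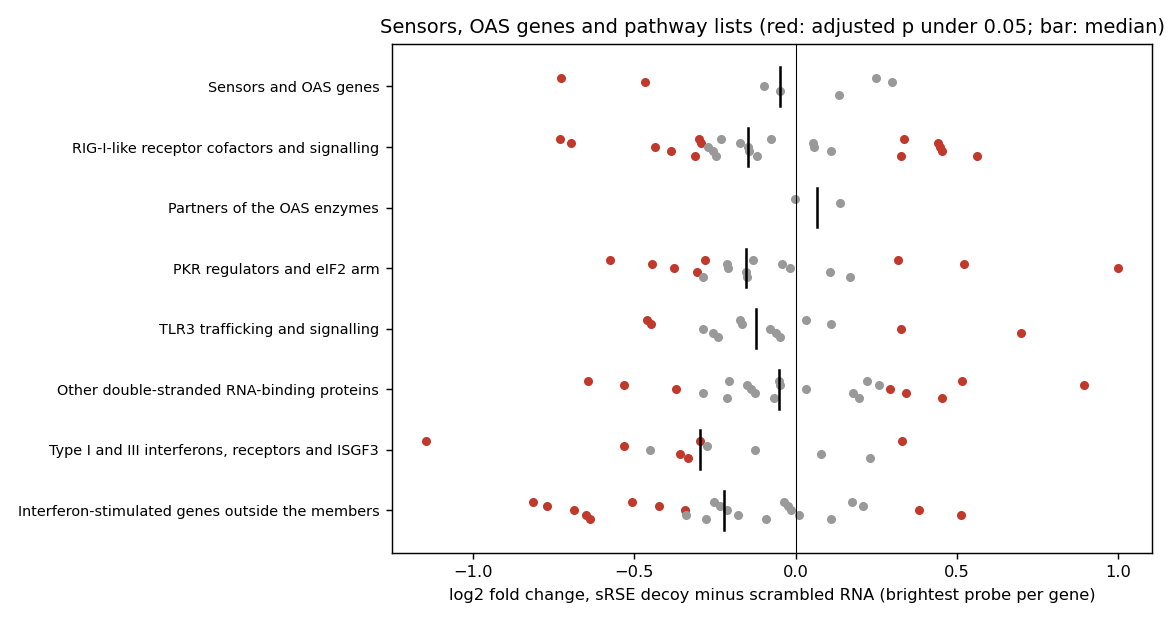
Log2 change (decoy minus scrambled RNA) of every tested gene in the 7 pathway lists and of the 7 tested members, each gene by its brightest probe; each point is 1 gene, red where called, and the vertical bar is the median of its list. The medians of the lists run from -0.30 (interferons, receptors and ISGF3) to 0.067 (partners of the OAS enzymes, 2 genes), beside -0.049 for the sensors and OAS genes.

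The 5 named genes whose 4 centred log2 signals lay nearest to those of IFIH1, by Euclidean distance, were CDC42EP2 (distance 0.030, change -0.75), NRDE2 (0.034, -0.71), SMARCA2 (0.037, -0.70), SS18 (0.046, -0.74) and PNMA2 (0.047, -0.69). They were drawn from 8789 named genes over 4 arrays. With so few arrays a near profile says little more than a change of similar size and a similar spread between the decoy arrays.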

How the data were processed

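Total RNA of 4 MDA-LM2 samples was read on Illumina beadchips, 2 samples per group by their labels. The authors deposited raw intensities (mean bead signals, neither background-subtracted nor log-transformed), each beside a detection p-value, per the file headers. In 3 cells of sRSE decoy replicate 1 the detection value was above its range and was filled in from probes nearest in signal. They also deposited normalized intensities, made with lumi per the submitters' processing notes, with the version not given in the sources used here. A further deposited table holds 1 value per transcript accession, here read from its values as the log10 ratio of group means of asinh-transformed normalized intensities. Because asinh acts much like a logarithm, the sizes of these ratios cannot be set beside log2 changes.

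No table used here pairs probes with genes. The log10 ratio was recomputed for each probe, and an accession was linked to the probe, or to the mean of 2 to 4 neighbouring probes, that gave the same value within 6e-10. This linked 38362 of 39747 accessions (96.5%), 5887 of them to means, a step added after the data were seen. When the table was displaced against the probes, so that each link had to be false, 111 single links (0.342% of those made) and 20.9 links to means arose on average. Names come from the RefSeq gene table of GRCh38.p14. Cross-hybridisation between the OAS relatives was not tested.

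With limma 3.58.1 in R 4.3.3, the background of the raw intensities was removed by normexp (offset 16), for which the detection p-values served to infer negative controls. Quantile normalization and log2 followed. Probes detected at p under 0.01 on at least 2 of 4 arrays were tested with lmFit and eBayes, 13889 probes in all, with Benjamini-Hochberg adjustment and a threshold of 0.05. The script was tested on simulated data. The number of arrays limits the precision: the median standard error of a log2 change was 0.096. A gene is represented by its brightest detected probe, and other probes are given beside it for some genes only. Differences between probes of 1 gene were tested as paired differences over all such probes, a step added after the data were seen. The genes named are all 9 sensors and OAS genes, the adaptors and regulators DHX58, IRF3, IRF7, IFNB1, TARBP2, PRKRA, ADAR and TICAM1, each list's called genes up to 8 by smallest p, and the 5 profiles nearest to the called member with the smallest p. The genes, the lists and this rule were chosen with earlier results of these data known. Some genes that the rule or the lists hold are not reported here.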

Additional observations from a re-analysis of the deposited data

How the results depend on the processing

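Results were recomputed under up to 14 alternatives. IFIH1 and the dimmer OASL probe kept their calls under every one run on them. The brightest OAS2 probe lost its call without the detection filter (-0.47, adjusted p = 0.0606), without sRSE decoy replicate 2 and without normalization (-0.30, adjusted p = 0.051). Genes called among the sensors and OAS family, 2 (0 higher, 2 lower), numbered 1 without the detection filter (1 lower) and 4 without normalization (3 higher, 1 lower), a setting chosen after the data were seen, and 1 to 3 (0 to 1 higher, 1 to 2 lower) without each array in turn. With the mean of a gene's probes 2 were higher and 1 lower, so the count of 0 higher depends in part on the use of the brightest probe. In that setting OAS2, whose detected probes disagree, was no longer called. Under median scaling 1 was higher, OAS1. Under cyclic loess, no background correction, an offset of 50, detection on all 4 arrays and the authors' normalized intensities, 1 was higher, OAS3. Probes called, 6018 (2973 higher, 3045 lower), numbered 3453 without the filter (1895 higher, 1558 lower), 3722 to 5090 without each array (1887 to 2582 higher, 1832 to 2508 lower), and 5832 higher and 569 lower without normalization. In that setting the median log2 change of all detected probes was 0.23, beside -0.020 in the main fit. The share of higher calls was 49.4%, 62.3% under median scaling (3443 higher, 2082 lower) and 91.1% without normalization. List genes called, 48 (18 higher, 30 lower), numbered 27 (10 and 17) without the filter, 31 higher and 9 lower without normalization, and 29 to 41 (8 to 13 higher, 19 to 28 lower) without each array. Signs turned for EIF2AK2 (-0.21 to 0.016 without each array, the latter without scrambled RNA replicate 1, and 0.063 unnormalized), OASL's brightest probe (-0.015 to 0.28 without each array, the former without sRSE decoy replicate 1), DDX58 (0.036 with median scaling, 0.23 unnormalized) and an OAS2 probe (0.12 unnormalized). They also turned, unnormalized, for CYLD (0.031), EIF2AK4 (0.052), IFNAR1 (0.061), TARBP2 (0.16) and TICAM1 (0.032), and with the mean of probes for ADAR (0.26), DHX36 (-0.012), IL10RB (0.097), IRF7 (0.0098) and TARBP2 (0.12), where probes disagree. The cause was not tested for the others. The samples share only replicate numbers, and deviations of same-numbered arrays correlated at -0.0084. With the replicate block 5935 probes were called (2936 higher, 2999 lower), 2 sensor and OAS genes were called, and EIF2AK4 and IRF7 missed the threshold (adjusted p = 0.052 and 0.0536). OAS1 and TLR3 lie near background, where the arrays limit what can be tested.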
